A study of Homo sapiens with 15 samples.

Results

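The 10 early neuron genes NEFM, NEFL, INA, SYT4, DCX, TUBB3, STMN2, ELAVL3, ELAVL4 and NHLH1 were followed through a differentiation of human embryonic stem cells under airborne particles. They were found by matching the Ensembl identifier of each row of the count and FPKM tables to the symbol, and all 10 of them were present among 60675 genes. FPKM is the number of fragments per kilobase of gene, scaled by library size. A neuron that has just left the cell cycle switches on transcription factors of the helix-loop-helix family, RNA-binding proteins that stabilise and splice neuronal messages, proteins that shape the microtubules of the growing axon, and the light and medium subunits of the neuronal intermediate filament. Such genes mark the neuronal fate in cultures of pluripotent cells, and the repressor REST holds many of them down in cells that are not neurons. The labels name the osteogenic lineage as the aim of the differentiation, so any neuronal transcript here comes from a culture directed elsewhere.

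The cells were wild-type H9, an established human embryonic stem cell line, and every library was collected on day 7. All groups spent 5 days in serum medium that lets the cells differentiate by themselves and then the same medium with ascorbic acid, β-glycerophosphate and vitamin D3. The control (UNT) received only the vehicle, DMSO at 0.1%. Fine particulate matter (FPM) was present from day 0 at 0.00062 µg/mL (FPM_IC25) or 1.4 µg/mL (FPM_IC50), and SRM, a standard reference material from NIST, at 0.003 µg/mL (SRM_IC25) or 5.9 µg/mL (SRM_IC50). IC25 and IC50 are the inhibitory levels that the labels derive from protein, so the particles were matched by inhibitory level and not by mass. Each of the 5 groups had 3 libraries of polyadenylated RNA from 1 cell line. Nothing in the labels says whether the replicates came from separate cultures, so p-values cover the spread between these libraries alone, which may be technical.

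Total counts were 9.34 to 58.2 M (M, mega) per library. A count of 3, taken as the floor of detection, was worth 0.0504 to 0.309 CPM (counts scaled by library size with TMM), and it covers counting error only. The 6 FPM libraries stood apart from the rest: genes annotated as antisense took 0.942% to 1.499% of their counts, against 0.274% to 0.287% in UNT and 0.288% to 0.319% with SRM. The part of this difference in the results on FPM was not tested. Of the 10 genes, 5 (INA, SYT4, DCX, STMN2 and NHLH1) have no annotated gene on the opposite strand within 5 kb.

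All 10 genes had counts in all 15 libraries and passed the filter on low counts, as did 19012 genes in all. Their levels per length differed widely. In the UNT libraries STMN2 stood at 16.0 ± 2.62 FPKM (SD, n = 3), which exceeded 81.7% of the protein-coding genes tested, followed by INA at 7.11 ± 1.22, NEFL at 4.20 ± 0.269 and NEFM at 2.95 ± 0.253 FPKM. The other 6 were low. NHLH1 was at 0.988 ± 0.231 FPKM, DCX at 0.863 ± 0.195, SYT4 at 0.512 ± 0.0882, ELAVL3 at 0.329 ± 0.118, ELAVL4 at 0.271 ± 0.0970 and TUBB3 at 0.176 ± 0.00556 FPKM, which exceeded only 6.15% of protein-coding genes. Over the 15 libraries the counts of TUBB3 were 9 to 55 and those of ELAVL3 5 to 126, so fold changes of these genes are less precise than those of STMN2, with 301 to 2564 counts. In bulk RNA, a change in the number of neuronal cells, in RNA per neuronal cell or in expression by other cells cannot be told apart. Whether these transcripts came from neuronal cells was not tested.

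The early neuron genes differed most between the 2 high doses. Each of 8 genes was lower at FPM_IC50 than at SRM_IC50, and STMN2 was higher, which makes 9 of 10 past the threshold in a comparison where 39.3% of all genes tested passed it. At SRM_IC50 against UNT, NEFL, NEFM, INA and NHLH1 rose and STMN2 fell, so that 5 of 10 passed against 17.6% of all genes. The median log2 fold change of the 10 genes was 0.61 there, beside 0.00 for all genes tested, and the libraries of the groups did not overlap for 6 of 10 genes (29.7% of all genes). At FPM_IC50 against UNT, NEFM and SYT4 fell, so that 2 of 10 passed against 13.6% of all genes, and the median was -0.31, beside 0.01 for all genes. There 4 of 10 genes had libraries that did not overlap (26.0% of all genes). The threshold was an adjusted p under 0.05 (edgeR quasi-likelihood F test, Benjamini-Hochberg adjustment over all genes tested), and the 4 comparisons with UNT share its 3 libraries.

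**Figure D1:**
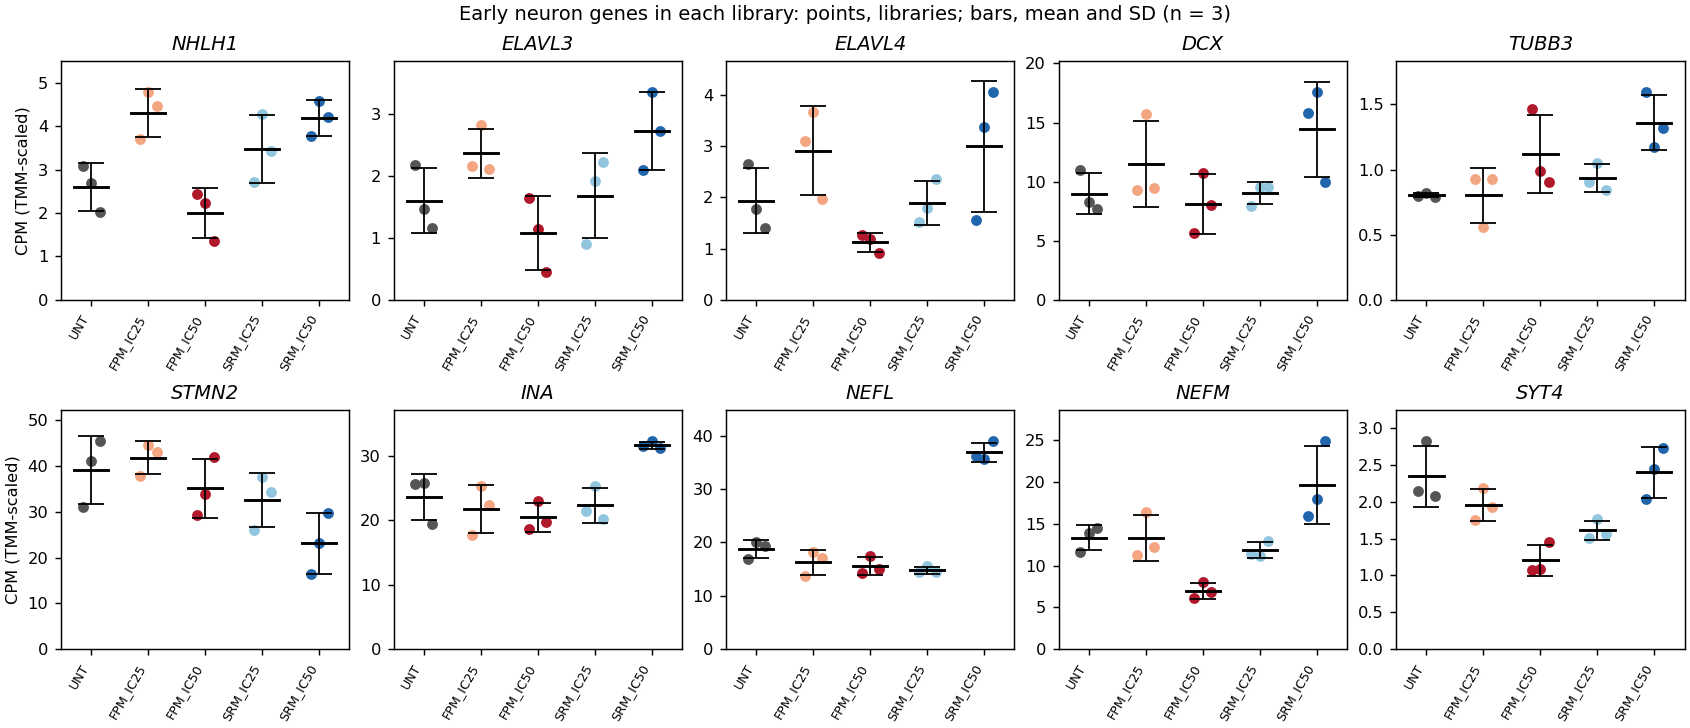
CPM (vertical axis, linear from 0, 1 scale per panel) of each early neuron gene in the 15 libraries, by group; points are libraries and black bars the mean and SD of 3. NEFL at SRM_IC50 lay between 35.6 and 38.9 CPM, above every other library, and STMN2 had its lowest mean in that group.

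At the low doses the counts of these genes past the threshold were near the share of all genes, so they do not set the 10 apart. At FPM_IC25 only NHLH1 passed (1 of 10, against 14.2% of all genes). At SRM_IC25 none of the 10 passed, against 4.37% of all genes (edgeR quasi-likelihood test, 2 at an unadjusted p under 0.05, not counted over all genes). With DESeq2 1 passed there, where 1980 of 12251 genes did. In edgeR 0 of all genes passed there with a correction for GC content, with only the 2 groups compared and without the FPM libraries. Between FPM_IC25 and SRM_IC25 none of the 10 passed, against 10.5% of all genes (edgeR, 0 at an unadjusted p under 0.05). With DESeq2 0 passed, where 2283 of 26074 genes did. The F test over all 5 groups passed for 6 of 10, NEFM, NEFL, INA, SYT4, STMN2 and NHLH1, against 40.8% of all genes.

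**Figure D2:**
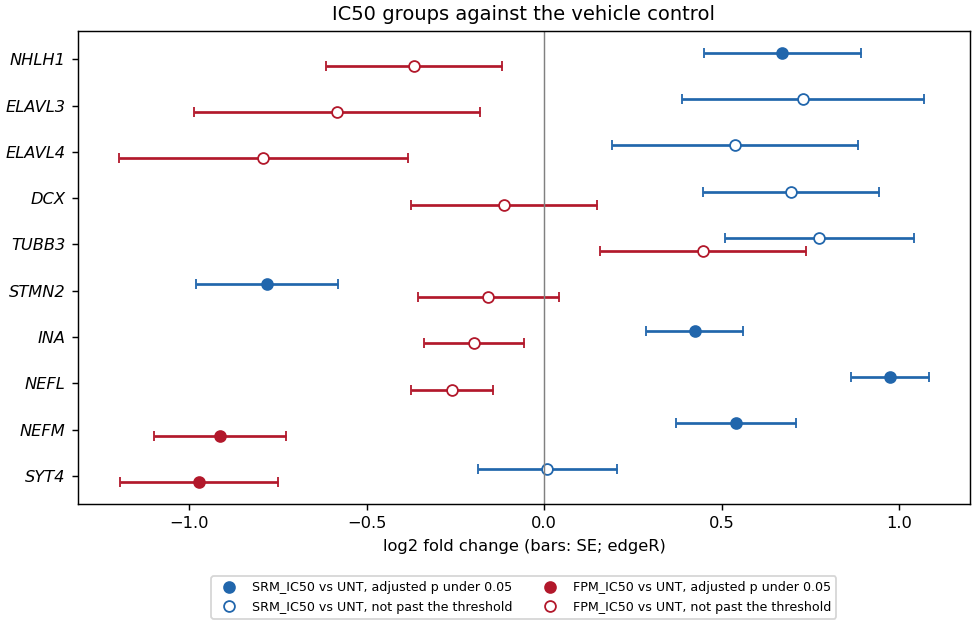
Log2 fold change (horizontal axis) of each early neuron gene at SRM_IC50 (blue) and FPM_IC50 (red) against UNT; bars are standard errors, filled points passed an adjusted p under 0.05 in edgeR. NEFL at 0.97 was the largest rise at SRM_IC50, and SYT4 at -0.97 and NEFM at -0.91 were the falls at FPM_IC50.

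The neurofilament genes encode subunits that assemble into the intermediate filaments of the axon: NEFL the light chain, NEFM the medium chain and INA alpha-internexin, which appears early in developing neurons. NEFL (ENSG00000277586, GRCh38 chromosome 8, 24950955 to 24957110, minus strand) was at 16.9, 19.97 and 19.4 CPM in UNT replicates 1 to 3 and at 36.1, 35.6 and 38.9 CPM at SRM_IC50. The other groups held 13.7 to 18.2 CPM at FPM_IC25, 14.2 to 17.4 CPM at FPM_IC50 and 14.4 to 15.5 CPM at SRM_IC25. Every SRM_IC50 library was thus above all 12 others, and the 4 other groups followed in the order UNT, FPM_IC25, FPM_IC50 and SRM_IC25 with overlap between each pair of neighbours. The log2 fold change of NEFL at SRM_IC50 against UNT was 0.97 (SE 0.11, edgeR adjusted p = 9.75e-06), and it passed in all 17 alternatives tried.

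NEFM (ENSG00000104722, chromosome 8, 24913012 to 24919098, plus strand) lies 31.9 kb from NEFL on the other strand. It was at 11.6, 13.9 and 14.5 CPM in UNT, at 15.9, 18.0 and 24.9 CPM at SRM_IC50 and at 6.14, 7.98 and 6.79 CPM at FPM_IC50. The SRM_IC50 libraries were above and the FPM_IC50 libraries below every UNT library. At FPM_IC50 the log2 fold change of NEFM was -0.91 (SE 0.19, edgeR adjusted p = 0.00196), and it passed in all 16 alternatives. At SRM_IC50 it was 0.54 (SE 0.17, adjusted p = 0.0372), a call that was lost without any 1 of UNT replicate 1, 2 or 3 or SRM_IC50 replicate 2 or 3 (adjusted p between 0.0517 and 0.145, log2 0.35 to 0.61). It was also lost with only the 2 groups compared (adjusted p = 0.0919) and in limma, a linear model on log2(FPKM + 1), with no filter on low values (0.0804).

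In these libraries the proportion of NEFM counts to NEFL counts differed between groups, and this measure does not depend on library size. The ratio of NEFM counts to NEFL counts was 0.688, 0.697 and 0.745 in the UNT libraries. It was 0.432, 0.457 and 0.455 at FPM_IC50 and 0.441, 0.506 and 0.639 at SRM_IC50, below every UNT library in both groups (two-sided exact permutation test, p = 0.1 each, the smallest that 3 against 3 allows). At FPM_IC50 the ratio was low with NEFM lower, and at SRM_IC50 it was low with both genes higher and NEFL more so. At the low doses the ratio was 0.720 to 0.903 with FPM and 0.720 to 0.892 with SRM, overlapping UNT (exact p = 0.2 each).

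**Figure D3:**
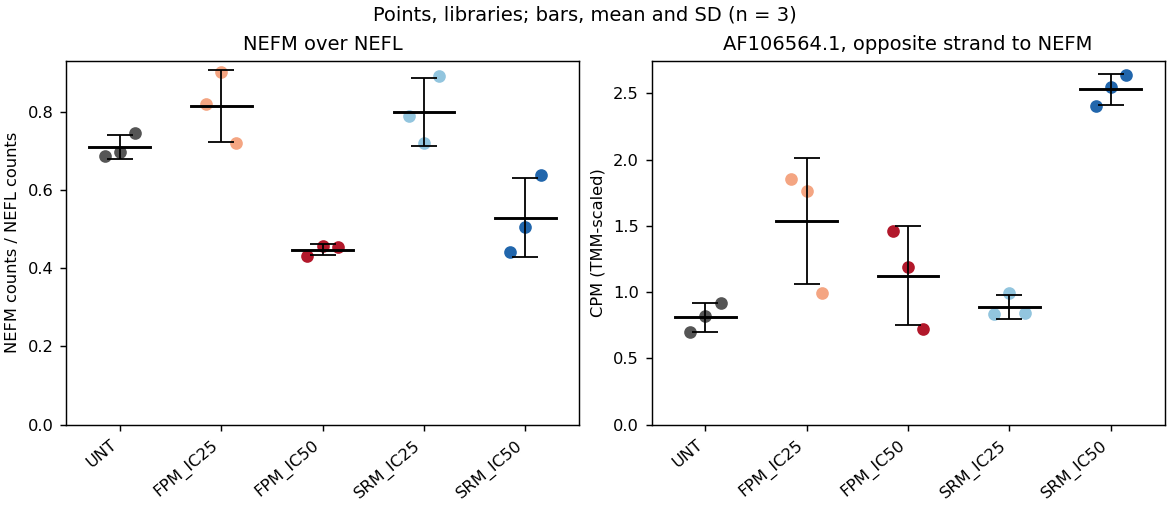
Left, NEFM counts over NEFL counts (vertical axis, from 0) in each library; right, CPM of AF106564.1, annotated on the strand opposite to NEFM; points are libraries, bars the mean and SD of 3. The ratio was 0.432 to 0.457 at FPM_IC50 and 0.688 to 0.745 in UNT, and AF106564.1 was highest at SRM_IC50.

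Both genes overlap annotated antisense transcripts, and the strand setting of the counting is not given in the sources used here, so reads of the partners may not be fully separated. AF106564.1 covers 38.9% of the exon bases of NEFM and AC107373.2 covers 11.3% of those of NEFL. AF106564.1 was at 0.697 to 0.915 CPM in UNT, 0.724 to 1.46 CPM at FPM_IC50 and 2.41 to 2.64 CPM at SRM_IC50. AC107373.2 was at most 0.509 CPM in any library. The antisense partner of NEFM was thus not lower at FPM_IC50, where NEFM fell, and stood highest in the group where NEFM rose. Its part in the NEFM result was not tested.

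INA (ENSG00000148798, chromosome 10, 103277163 to 103290351, plus strand) was at 25.6, 25.8 and 19.5 CPM in UNT and at 31.6, 32.3 and 31.3 CPM at SRM_IC50. The 3 SRM_IC50 libraries lay close together above all 12 others, which ranged from 17.8 to 25.8 CPM. The log2 fold change of INA at SRM_IC50 was 0.42 (SE 0.14, edgeR adjusted p = 0.0408). The call was lost without any 1 of UNT replicate 2 or 3 or SRM_IC50 replicate 1, 2 or 3 (adjusted p 0.0521 to 0.173, log2 0.31 to 0.49), with only the 2 groups compared (0.0627) and in the 3 limma fits tried on log2 FPKM (0.0501 to 0.117). INA is one of 6 of the genes with a window in the RefSeq promoter table, and its upstream bases are shown because it rose with NHLH1 and has no gene opposite to it (GRCh38.p14, chr10:103276888-103277137, plus strand, 5′ to 3′, up to the base before the RefSeq start; capitals mark the E-box CAGCTG, a motif bound by proneural helix-loop-helix factors).
INA: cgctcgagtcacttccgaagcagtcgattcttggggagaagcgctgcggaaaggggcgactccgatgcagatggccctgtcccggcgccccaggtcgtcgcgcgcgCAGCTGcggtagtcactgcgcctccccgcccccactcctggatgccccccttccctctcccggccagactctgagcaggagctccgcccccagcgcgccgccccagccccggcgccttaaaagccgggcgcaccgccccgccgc
The 250 bases were 72.8% G or C with 30 CG dinucleotides, where the median of 35116 windows was 58% and 11. They held 1 CAGCTG, found in 13.99% of windows, and no match on either strand to TATAAA (10.7% of windows) or CCAAT (32.0%). A match describes the letters only.

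Among the 3 genes of microtubules, STMN2 passed at SRM_IC50, where it fell, and DCX and TUBB3 did not pass. STMN2 (ENSG00000104435, chromosome 8, 79610814 to 79666175, plus strand) encodes stathmin-2, which binds tubulin in growth cones and is tied to axon regrowth. It was at 31.0, 41.1 and 45.4 CPM in UNT and at 16.5, 23.1 and 29.8 CPM at SRM_IC50, where every library was below every UNT library. The log2 fold change was -0.78 (SE 0.20, edgeR adjusted p = 0.0114). The call was lost without UNT replicate 3 or without SRM_IC50 replicate 1 (adjusted p 0.0568 and 0.0642), and with only the 2 groups compared in the fit (0.0580). The groups stood in the order FPM_IC25, UNT, FPM_IC50, SRM_IC25 and SRM_IC50, with overlap between each pair of neighbours. The ratio of STMN2 counts to NEFL counts was 1.84, 2.06 and 2.34 in UNT. At SRM_IC50 it was 0.456, 0.649 and 0.765 (two-sided exact permutation test, p = 0.1, the smallest possible). STMN2 was below and NEFL above every UNT library there, so the ratio had to separate and its test adds nothing. At FPM_IC25 the ratio was 2.46 to 2.77, above every UNT library (two-sided exact permutation test, p = 0.1). It was 1.95 to 2.82 at FPM_IC50 and 1.82 to 2.42 at SRM_IC25, overlapping UNT (two-sided exact permutation test, p = 0.6 each). The 3 lowest ratios of the series were therefore those of SRM_IC50.

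DCX (ENSG00000077279, chromosome X, 111293779 to 111412429, minus strand) encodes doublecortin, a microtubule-binding protein of migrating neurons. It was at 10.996, 8.28 and 7.68 CPM in UNT, at 15.8, 17.6 and 9.93 CPM at SRM_IC50 and at 5.65, 10.7 and 8.06 CPM at FPM_IC50. SRM_IC50 replicate 3 lay within the range of UNT, and so did 2 of the FPM_IC50 libraries. The log2 fold change at SRM_IC50 was 0.70 (SE 0.25, edgeR adjusted p = 0.0665), which did not pass. It passed without UNT replicate 1 or without SRM_IC50 replicate 3 (adjusted p 0.0433 and 0.0137, log2 0.87 and 0.89). It also passed with a correction for the GC content of genes (adjusted p = 0.0365, log2 0.76), without the FPM libraries (0.0414, log2 0.70) and with no filter on low counts (0.000195, log2 0.70).

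TUBB3 (ENSG00000258947, chromosome 16, 89921392 to 89938761, plus strand) encodes class III beta-tubulin, a standard marker of neurons. It was at 0.796, 0.822 and 0.793 CPM in UNT, at 1.59, 1.17 and 1.32 CPM at SRM_IC50 and at 1.46, 0.991 and 0.905 CPM at FPM_IC50. No library of these exposed groups overlapped UNT. These values rest on 13 to 16 counts in UNT, 10 to 20 at FPM_IC50 and 15 to 47 at SRM_IC50, so counting error limits this separation. The log2 fold change of TUBB3 was 0.78 (SE 0.27, edgeR adjusted p = 0.0576) at SRM_IC50 and 0.45 (SE 0.29, adjusted p = 0.410) at FPM_IC50, and neither passed. The first passed without the FPM libraries (adjusted p = 0.0446). Its level is uncertain for 2 reasons: tubulin genes have near-identical copies, and a readthrough gene on the same strand (AC092143.1), listed at 0 counts in every library, shares 35.8% of its exon bases.

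The neuronal RNA-binding genes ELAVL3 and ELAVL4 encode HuC and HuD, which stabilise messages of differentiating neurons. ELAVL3 (ENSG00000196361, chromosome 19, 11451326 to 11481046, minus strand) was at 2.19, 1.47 and 1.16 CPM in UNT, at 2.10, 3.36 and 2.73 CPM at SRM_IC50 and at 1.66, 1.14 and 0.453 CPM at FPM_IC50. Both exposed groups overlapped UNT and were separate from each other. It shares 5.38% of its exon bases with AC008481.3, listed at 0 counts in every library. ELAVL4 (ENSG00000162374, chromosome 1, 50048014 to 50203786, plus strand) was at 2.64, 1.76 and 1.40 CPM in UNT, at 1.56, 3.36 and 4.04 CPM at SRM_IC50 and at 1.27, 1.19 and 0.905 CPM at FPM_IC50, where all 3 libraries were below UNT. Against UNT the log2 fold changes of ELAVL3 were 0.73 (SE 0.34, edgeR adjusted p = 0.174) at SRM_IC50 and -0.58 (SE 0.40, adjusted p = 0.420) at FPM_IC50. Those of ELAVL4 were 0.54 (SE 0.35, adjusted p = 0.351) and -0.79 (SE 0.41, adjusted p = 0.256), and none of the 4 values passed.

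Directly between the high doses these genes did differ. ELAVL3 was lower at FPM_IC50 than at SRM_IC50 with a log2 value of -1.31 (SE 0.38, edgeR adjusted p = 0.0116) and ELAVL4 by -1.33 (SE 0.39, adjusted p = 0.0131). The call of ELAVL3 was lost without FPM_IC50 replicate 3 (adjusted p = 0.0505, log2 -1.002), its lowest library. ELAVL2, the paralog that is also expressed outside neurons, was at 18.5 ± 0.433 CPM in UNT and its log2 fold change at SRM_IC50 was 0.11 (adjusted p = 0.491).

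NHLH1 (ENSG00000171786, chromosome 1, 160367067 to 160372848, plus strand) encodes a helix-loop-helix factor that newborn neurons express briefly. It was at 3.08, 2.70 and 2.01 CPM in UNT, at 3.70, 4.78 and 4.45 CPM at FPM_IC25, at 2.44, 2.23 and 1.36 CPM at FPM_IC50, at 2.72, 4.29 and 3.44 CPM at SRM_IC25 and at 3.76, 4.58 and 4.22 CPM at SRM_IC50. Both FPM_IC25 and SRM_IC50 lay wholly above UNT, and SRM_IC25 and FPM_IC50 overlapped it. NHLH1 was the one gene of the 10 to rise at FPM_IC25, by 0.74 on the log2 scale (SE 0.22, edgeR adjusted p = 0.0294), and at SRM_IC50 it rose by 0.67 (SE 0.22, adjusted p = 0.0460). The first call was lost without any 1 of UNT replicate 2 or 3 or FPM_IC25 replicate 2 or 3 (adjusted p 0.0713 to 0.121), and the second without any 1 of UNT replicate 2 or 3 or any 1 SRM_IC50 library (adjusted p 0.0620 to 0.170). Correcting for GC content also ended both calls (adjusted p = 0.0535 and 0.0516) at log2 values of 0.68 and 0.65. The call at SRM_IC50 was also lost without the FPM libraries, with only the 2 groups compared and in the 3 limma fits (adjusted p 0.0507 to 0.111), and that at FPM_IC25 in limma with no filter (0.0544). Its upstream bases are shown beside those of INA as the other gene that rose at SRM_IC50 with a promoter window (GRCh38.p14, chr1:160366821-160367066, plus strand, 5′ to 3′; capitals mark CCAAT).
NHLH1: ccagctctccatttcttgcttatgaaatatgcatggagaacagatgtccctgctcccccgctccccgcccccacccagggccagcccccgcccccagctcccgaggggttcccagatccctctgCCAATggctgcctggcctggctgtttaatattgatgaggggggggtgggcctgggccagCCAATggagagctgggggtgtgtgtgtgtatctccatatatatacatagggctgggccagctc
These 246 bases were 61.0% G or C with 4 CG dinucleotides, fewer than in INA. They held 2 CCAAT boxes and no match on either strand to CAGCTG or TATAAA, so the windows of INA and NHLH1 shared none of the 3 motifs searched.

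SYT4 (ENSG00000132872, chromosome 18, 43267878 to 43277650, minus strand) encodes synaptotagmin-4, a protein of secretory vesicles in neurons and endocrine cells. It was at 2.14, 2.82 and 2.07 CPM in UNT and at 1.07, 1.09 and 1.45 CPM at FPM_IC50, where every library was below every UNT library. The log2 fold change was -0.97 (SE 0.22, edgeR adjusted p = 0.00559). Of 16 alternatives only limma on log2(FPKM + 1) with the filter on low values ended the call (log2 -0.24, adjusted p = 0.0689). Adding 1 makes the log2 values of low genes smaller, but the same scale with no filter kept the call. At SRM_IC50 it was at 2.03, 2.44 and 2.73 CPM, which overlapped UNT, and the log2 fold change was 0.01 (SE 0.20). The SRM_IC25 libraries, at 1.51 to 1.76 CPM, were also all below UNT, and there the log2 fold change of -0.51 did not pass (SE 0.20, adjusted p = 0.140).

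From IC25 to IC50, 4 of the 10 genes rose with SRM and none passed with FPM. With SRM, NEFL (log2 1.31, SE 0.11, adjusted p = 3.72e-07), NEFM (0.72, SE 0.17, adjusted p = 0.00499), INA (0.50, SE 0.14, adjusted p = 0.0122) and DCX (0.69, SE 0.25, adjusted p = 0.0495) rose, in a comparison where 26.9% of all genes passed (edgeR). The call of DCX was lost without any 1 of SRM_IC25 replicate 1, 2 or 3 or SRM_IC50 replicate 1 or 2 (adjusted p 0.0910 to 0.208), and that of INA without SRM_IC25 replicate 3 (adjusted p = 0.0604). STMN2 at -0.53 (SE 0.20, adjusted p = 0.0602) did not pass, but did without SRM_IC25 replicate 1 or SRM_IC50 replicate 3 (adjusted p 0.0293 and 0.00904), with the GC correction (0.0436) and with no filter on low counts (0.000233). The GC correction also ended the call of DCX (adjusted p = 0.0832, log2 0.59) and brought TUBB3 past the threshold (0.0469, log2 0.70), and limma on log2 FPKM ended that of DCX (0.132 to 0.266) and, with no filter, that of INA (0.0529). SYT4 (0.52, SE 0.20) and ELAVL4 (0.60, SE 0.34) did not pass either, and each passed without SRM_IC50 replicate 1 (adjusted p = 0.0490 and 0.0334).

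With FPM none of the 10 passed between the doses, in a comparison where 0.0105% of all genes did (edgeR). With DESeq2 2 passed, where 37 of 17627 genes did. In edgeR 5 of 10 were at an unadjusted p under 0.05. The share of all genes at an unadjusted p was not counted, so these 5 cannot be set against the 0.0105%. Those 5 were NEFM (log2 -0.92, SE 0.18), NHLH1 (-1.11, SE 0.23), ELAVL4 (-1.31, SE 0.39), SYT4 (-0.73, SE 0.22) and ELAVL3 (-1.12, SE 0.38), and in each the FPM_IC50 libraries lay wholly below those of FPM_IC25, as in 4.01% of all genes. Their adjusted p values were 0.142 to 0.852. With DESeq2, NEFM (adjusted p = 0.00476) and NHLH1 (adjusted p = 0.0186) passed, and with edgeR and no filter on low counts so did NEFM (3.77e-06), NHLH1 (0.00279) and ELAVL4 (0.00607). NEFL (-0.08, SE 0.12) and INA (-0.10, SE 0.14) were near 0.

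The difference between the steps, FPM minus SRM, was tested in the same fit, a comparison chosen after seeing the data. It was below 0 and passed for 7 of 10 genes, against 14.6% of all genes and 6.59% in that direction. The values were -1.90 (SE 0.52) for ELAVL4, -1.75 (SE 0.50) for ELAVL3, -1.64 (SE 0.25) for NEFM, -1.39 (SE 0.16) for NEFL, -1.32 (SE 0.31) for NHLH1, -1.25 (SE 0.30) for SYT4 and -1.15 (SE 0.36) for DCX on the log2 scale, with edgeR adjusted p between 2.46e-05 and 0.0402. NEFM, NEFL and NHLH1 passed without each library in turn, as did SYT4. The call of DCX was lost without any 1 of FPM_IC25 replicate 2, FPM_IC50 replicate 1 or 3, SRM_IC25 replicate 1, 2 or 3 or SRM_IC50 replicate 1 or 2 (adjusted p 0.0586 to 0.122). That of ELAVL3 was lost without FPM_IC25 replicate 2, FPM_IC50 replicate 2 or 3 or SRM_IC50 replicate 2 (0.0589 to 0.0767), and that of ELAVL4 without FPM_IC25 replicate 2, FPM_IC50 replicate 3, SRM_IC25 replicate 2 or SRM_IC50 replicate 2 (0.0551 to 0.0623). INA at -0.59 (SE 0.19, adjusted p = 0.0524), STMN2 at 0.27 (SE 0.28) and TUBB3 at -0.09 (SE 0.38) did not pass. INA passed without FPM_IC25 replicate 1, FPM_IC50 replicate 2 or SRM_IC25 replicate 2 (adjusted p 0.0243 to 0.0402), and with DESeq2, its size factors, no filter or the GC correction (0.0218 to 0.0467). In 1 or more of the 3 limma fits SYT4, DCX, ELAVL3 and ELAVL4 did not pass (adjusted p 0.0594 to 0.213).

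**Figure D4:**
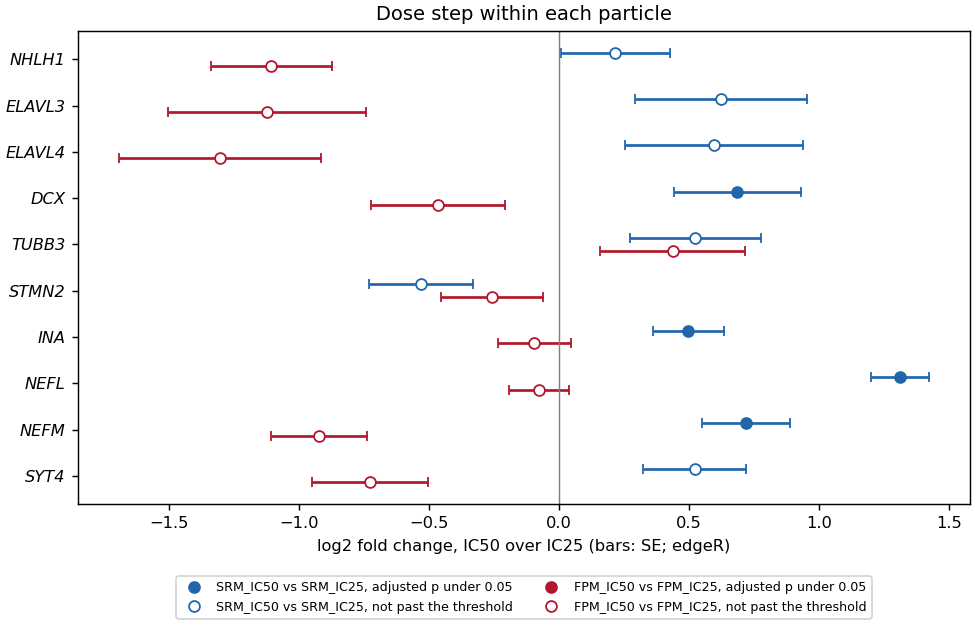
Log2 fold change (horizontal axis) from IC25 to IC50 with SRM (blue) and FPM (red) for each early neuron gene; bars are standard errors and filled points passed an adjusted p under 0.05 in edgeR. Apart from TUBB3 and STMN2, each gene has the SRM value above 0 and the FPM value below it.

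In the direct contrast of the high doses, FPM_IC50 against SRM_IC50, NEFM was at -1.46 on the log2 scale (SE 0.18, edgeR adjusted p = 9.13e-06) and NEFL at -1.24 (SE 0.11, adjusted p = 2.63e-07), beside the values of ELAVL3 and ELAVL4 given above. NHLH1 (-1.04, SE 0.24), SYT4 (-0.98, SE 0.22), DCX (-0.81, SE 0.26) and INA (-0.62, SE 0.14) were lower too, and STMN2 was higher by 0.62 (SE 0.20, adjusted p = 0.0217). Groups did not overlap in 7 of 10 genes, all lower with FPM, against 20.2% of all genes in that direction. TUBB3 at -0.33 (SE 0.27, adjusted p = 0.362) did not pass. The calls of DCX (without any 1 of FPM_IC50 replicate 1 or 3 or SRM_IC50 replicate 1 or 2, adjusted p 0.0506 to 0.0859) and STMN2 (without FPM_IC50 replicate 3 or SRM_IC50 replicate 1 or 2, adjusted p 0.0553 to 0.107) were lost with 1 library left out. DCX did not pass in the 3 limma fits (adjusted p 0.0607 to 0.118), nor did ELAVL3 (0.0511) and ELAVL4 (0.0797) in the one with no filter.

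The closest relatives of the 10 genes gave a mixed picture at SRM_IC50 against UNT. TUBB2B, a beta-tubulin of developing neurons, went from 219 ± 31.0 to 449.5 ± 107 CPM (SD, n = 3; log2 1.03, edgeR adjusted p = 9.995e-05), and DCLK1, the doublecortin-like kinase, from 36.5 ± 5.48 to 72.3 ± 0.767 CPM (log2 0.98, adjusted p = 9.43e-05). STMN3 rose (log2 0.67, adjusted p = 0.000578), in contrast to STMN2, while STMN1 (log2 -0.07) and STMN4 (0.35) did not pass. NHLH2 rose like NHLH1 (log2 0.85, adjusted p = 0.0144). The heavy neurofilament gene NEFH (0.39), the peripheral neuron filament gene PRPH (0.73) and SYT11 (0.33) did not pass. At FPM_IC50 none of these relatives passed, and PRPH had the lowest value there, -1.06 on the log2 scale (SE 0.39, adjusted p = 0.0971).

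Other neuronal genes were counted in 4 lists, of which 83 of 96 members passed the filter on low counts. At SRM_IC50, 33 of the 83 were higher and 1 lower, with a median log2 fold change of 0.46, where 7.96% and 9.59% of all genes passed in those directions. At FPM_IC50, 0 were higher and 2 lower, with a median of -0.16 (10.8% and 2.77% of all genes). The lists were chosen with earlier results of these data known, so their direction is no independent evidence.

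The cytoskeleton and axon growth list had 13 of 25 higher and 0 lower at SRM_IC50, with CNTN2, an axonal adhesion protein, at 3.83 ± 1.49 CPM in UNT and 10.8 ± 3.26 CPM at SRM_IC50. KIF1A, a motor of synaptic vesicle precursors, rose by 1.20 on the log2 scale, TUBB2A by 1.04 and GAP43, a growth cone protein, by 0.92. GAP43 was the 1 member lower at FPM_IC50 (-0.71, adjusted p = 0.0182). The synaptic list had 9 of 24 higher and 0 lower, among them SYN3, a synapsin, at 1.65, SYP, which encodes synaptophysin, at 1.42, GAD1, which makes GABA, at 1.18 and RAB3A, a vesicle GTPase, at 0.97. SYP remained low in absolute terms, at 1.44 ± 0.271 CPM in UNT and 4.00 ± 1.13 CPM at SRM_IC50. Among RNA-binding proteins 5 of 15 were higher and 0 lower, led by RBFOX3 (1.24), which encodes the neuronal nuclear antigen NeuN, and the splicing regulator NOVA2 (1.097).

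Proneural and neuronal transcription factors were split. At SRM_IC50, 6 of 19 were higher, among them MYT1 (1.48), INSM1 (1.24) and HES6 (0.90), and ISL1 was lower (-1.29), a gene that the amnion list holds too. Their summed level over 29 listed genes was 496 to 560 CPM in UNT and 463 to 573 CPM at SRM_IC50, which overlapped. At FPM_IC25, 3 of 19 were higher, among them EBF3 (0.99) and EBF1 (0.48), and SOX4 was lower (-0.50), where 14.2% of all genes passed in either direction. REST was at 106 ± 8.76 CPM in UNT and 98.7 ± 11.3 CPM at SRM_IC50 (log2 -0.11, adjusted p = 0.633). REST was lower at FPM_IC25 (-0.46, edgeR adjusted p = 0.0146) and SRM_IC25 (-0.50, adjusted p = 0.0307). There 1 and 0 of the 10 early neuron genes passed, against 14.2% and 4.37% of all genes. At SRM_IC25 the call of REST was lost with the GC correction, with only the 2 groups compared and without the FPM libraries. In each of those fits 0 of all genes tested passed. The part of REST in these results was not tested. Among 11 genes of REST and its partners 1 was higher at SRM_IC50, the co-repressor RCOR2 (0.42), and 3 were lower, CTDSPL (-0.45), CTDSP1 (-0.28) and RCOR3 (-0.26).

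**Figure D5:**
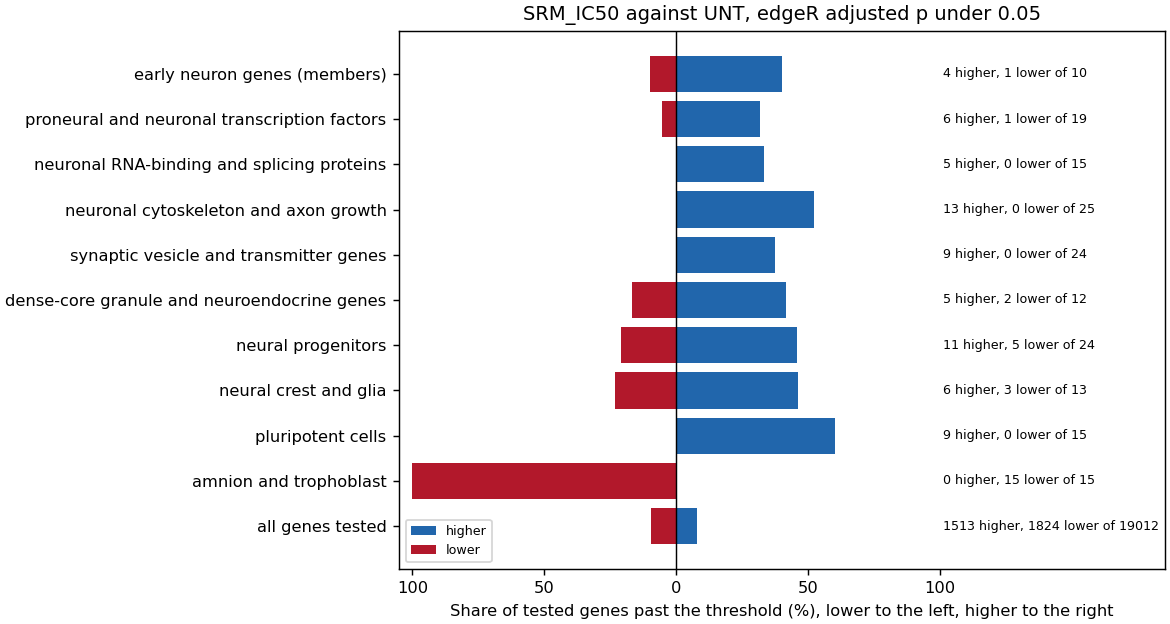
Share of the tested genes of each list (horizontal axis, percent) that were higher (blue, right) or lower (red, left) at SRM_IC50 against UNT at an adjusted p under 0.05 in edgeR; counts stand at the right. The early neuron genes had 4 higher and 1 lower of 10, and the amnion and trophoblast list 15 lower of 15.

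Markers of other cell types moved with these genes at SRM_IC50, and their part in the results was not tested. Pluripotency genes had 9 of 15 tested members higher and 0 lower, and their summed level over 18 genes was 2358 to 2568 CPM in UNT and 3725 to 4037 CPM at SRM_IC50. Amnion and trophoblast genes had 15 of 15 lower, with sums over 17 genes of 2070 to 2423 CPM in UNT and 491 to 554 CPM at SRM_IC50. Neural progenitor genes had 11 of 24 higher, such as SOX21 (1.53), and 5 lower, among them RAX (-2.55), LHX2 (-1.61), SIX3 (-1.26) and PAX6 (-1.26), factors of the eye field and forebrain. Their sums were 1403 to 1541 CPM in UNT and 1901 to 1970 CPM at SRM_IC50. Neural crest and glia genes had 6 of 13 higher and 3 lower, with sums of 699 to 799 CPM in UNT and 789 to 858 CPM at SRM_IC50, which overlapped. Notch ligands and targets had 2 of 15 higher, DLL3 (0.87) and HEYL (0.71), and 3 lower, HEY1 (-1.002), DLL1 (-0.64) and HEY2 (-0.53). Of the osteogenic aim of the culture, ALPL, an alkaline phosphatase, was at 88.3 ± 7.59 CPM in UNT and 162 ± 6.25 CPM at SRM_IC50 (SD, n = 3). Its log2 fold change was 0.87 (edgeR adjusted p = 2.84e-06). Pluripotency genes were higher in that group too, and whether ALPL marks osteogenic cells here was not tested. BGLAP, which encodes osteocalcin, had at most 13 counts in a library. Mesoderm and osteoblast genes had 3 of 14 higher and 5 lower at SRM_IC50. PSG1, a trophoblast gene, had 0 counts in 14 of 15 libraries.

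Dense-core granule genes, which neurons share with neuroendocrine cells, had 5 of 12 higher and 2 lower at SRM_IC50. CHGA, the granule protein chromogranin A, went from 0.412 ± 0.0144 to 2.12 ± 0.333 CPM (log2 2.32). PCSK1, a prohormone convertase, rose by 1.70 and SCG2, a secretogranin, by 1.38, while SYT7 (-0.88) and CPE (-0.64) were lower. The summed level of the 12 genes was 516 to 640 CPM in UNT and 417 to 490 CPM at SRM_IC50. CPE alone held most of this sum, at 444 ± 62.4 CPM in UNT and 286 ± 36.7 CPM at SRM_IC50 (SD, n = 3). The list thus had more members higher than lower, and a lower sum set mostly by CPE.

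Across the 15 libraries, 8 of the 10 genes followed the mean of the other 9 (Pearson r of log2 CPM 0.65 to 0.86), while TUBB3 (-0.02) and STMN2 (-0.45) did not. Without the FPM libraries (9 libraries) r was 0.63 for TUBB3 and -0.56 for STMN2. These correlations rest on 5 groups and describe these libraries only. Of 13596 other protein-coding genes with a mean of at least 1 CPM, the 6 with the highest r to the mean of the 10 over 15 libraries included SYP (0.90), TAC1 (0.90), CDCA7 (0.89), EXOG (0.89) and PHACTR3 (0.89). TAC1 encodes the precursor of the neuropeptide substance P. Over the 9 libraries without FPM they were GDPD2 (0.98), SHISA3 (0.98), LDHA (0.97), EXOG (0.97), SLC18A2 (0.97) and CD200 (0.96), so that EXOG, a mitochondrial nuclease, was the 1 gene named in both.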

How the data were processed

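Polyadenylated RNA of 15 libraries in 5 groups of 3 was prepared with a directional kit, per the labels' protocols. Per the submitters' processing notes, the authors used HISAT2 2.2.1, SAMtools 1.10, featureCounts from Subread 2.0.15, FastQC 0.11.7 and DESeq2 on GRCh38; for the strand setting and multi-mapped reads nothing is given in the sources used here. The deposited counts are whole-number reads per gene, and the deposited FPKM values scale them by gene length and library size. 1 deposited column holds gene lengths and no sample.

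edgeR 4.0.16 (R 4.3.3) was applied to the counts (TMM, filterByExpr, robust quasi-likelihood fit of 5 group means to all libraries, F test, Benjamini-Hochberg adjustment over 19012 genes, threshold 0.05), a procedure that was tested on simulated data. Other settings were no filter, DESeq2 1.42.0, its size factors alone, a GC correction, only the 2 groups compared and no FPM libraries. With limma 3.58.1, log2(FPKM + 1) was fitted with and without a minimum of 0.5 FPKM in 3 libraries. The fit to log2(FPKM + 0.1) was run only with that minimum. The replicate number was also used as a block, and each library was left out in turn. Total counts of 9.34 to 58.2 M (M, mega) set the precision. No pair of replicates agreed within sampling noise (the lowest chi-square per gene was 5.28).

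Positions are from GENCODE 29 (GRCh38) and promoter windows from RefSeq (GRCh38.p14). Named genes were the 10 genes, their closest relatives, REST, up to 6 members past the threshold per list and comparison by size, and the 6 genes most alike; a few genes that this rule selects are not reported here. The genes and the 12 lists beside them were chosen with earlier results of these data known.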

Additional observations from a re-analysis of the deposited data

Results flagged for a closer look

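For 7 genes the step from IC25 to IC50 differed between the particles, by a test of the difference itself that was chosen after seeing the data (edgeR, FPM step minus SRM step). The differences were -1.90 for ELAVL4, -1.75 for ELAVL3, -1.64 for NEFM, -1.39 for NEFL, -1.32 for NHLH1, -1.25 for SYT4 and -1.15 for DCX on the log2 scale, all below 0. The doses in mass differed between the particles, and the FPM libraries stood apart in their share of antisense counts, so particle and library group cannot be told apart here.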

How the results depend on the processing

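Over the alternatives of 61 single-gene values, 889 of 1022 kept direction and side of the threshold, 85 lost the call, 36 gained it and 12 reversed. The call of NEFL at SRM_IC50 and the calls of NEFM at FPM_IC50, between the SRM doses and for the difference of the dose steps held in every alternative run. Counts of early neuron genes past the threshold are given with the count over all genes tested in brackets. At SRM_IC50 against UNT it was 5 (3337 of 19012), but 1 when only the 2 groups compared were fitted (2329 of 16820). There it was 3 with limma on log2(FPKM + 1) (2694 of 18868), 3 with limma on log2(FPKM + 0.1) (2820 of 18868) and 2 with limma and no filter (2264 of 40668). At FPM_IC50 against UNT it was 1 with limma on log2(FPKM + 1) (2583 of 18868) instead of 2 (2585 of 19012). At FPM_IC25 against UNT it was 0 with the GC correction (2276 of 19012) and 0 with limma and no filter (2512 of 40668) instead of 1 (2693 of 19012). At SRM_IC25 against UNT it was 1 with DESeq2 (1980 of 12251) instead of 0 (831 of 19012). Between the SRM doses it was 2 with limma and no filter (3501 of 40668) instead of 4 (5115 of 19012). Between the FPM doses it was 2 with DESeq2 (37 of 17627) and 3 with edgeR and no filter (116 of 40668) instead of 0 (2 of 19012). For the difference of the dose steps it was 7 (2775 of 19012). It was 3 there with limma on log2(FPKM + 1) (2247 of 18868), 4 with limma on log2(FPKM + 0.1) (2288 of 18868) and 4 with limma and no filter (1666 of 40668). ELAVL4 and TUBB3 did not reach the minimum of 0.5 FPKM in 3 libraries. The limma fits with that minimum therefore did not test them, and they count there as not passed. The cause of the other changes was not tested.

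With 1 library left out the counts at SRM_IC50 against UNT were 1 to 5, again with all genes in brackets. The count was 1 without UNT replicate 3 (2546 of 19629) and 3 without SRM_IC50 replicate 3 (3396 of 19596). It was 2 without UNT replicate 2 (2510 of 19629) or SRM_IC50 replicate 1 (2573 of 19420) or 2 (2515 of 19407). At FPM_IC25 against UNT the counts were 0 to 1. The count was 0 without UNT replicate 2 (2083 of 19629) or 3 (2265 of 19629) or FPM_IC25 replicate 2 (2179 of 19413) or 3 (2346 of 19450). Between the SRM doses they were 2 to 5, with 2 without SRM_IC25 replicate 3 (4137 of 19625). Between the high doses they were 6 to 9, with 6 without FPM_IC50 replicate 3 (6883 of 19521). For the difference of the dose steps they were 4 to 8. The count was 4 without FPM_IC25 replicate 2 (2032 of 19413), FPM_IC50 replicate 3 (2136 of 19521) or SRM_IC50 replicate 2 (1990 of 19407). The F test over all groups gave 5 to 9, with 9 without UNT replicate 1 (8310 of 19424). Values that had not passed changed sign in such fits: SYT4 at SRM_IC50 against UNT (-0.068 to 0.16), DCX at FPM_IC50 against UNT (-0.39 to 0.075), NEFL (-0.18 to 0.00021) and INA (-0.21 to 0.016) between the FPM doses, and TUBB3 for the difference of the dose steps (-0.28 to 0.14).

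The labels link same-numbered libraries of different groups by the number alone. Their deviations from the group means correlated at -0.14 to 0.44, with 16 of 30 pairs over 0.1. Of 15 libraries, 9 correlated best with their own number, so part of the spread may be shared by number. The main fit did not use the numbers. With the replicate number as a block the counts are given with the genes passing, of 19012, in brackets. Against UNT they were 6 at SRM_IC50 (4390), 1 at SRM_IC25 (2718), 2 at FPM_IC50 (3649) and 1 at FPM_IC25 (4079). Between the SRM doses the count was 6 (6670) and between the FPM doses 2 (34), also 2 with the block and the GC correction (37). It was 1 between the low doses (2963), 9 between the high doses (8914) and 8 for the difference of the dose steps (4043). Genes that passed with the block but not without it included DCX at SRM_IC50 against UNT (adjusted p = 0.0199), STMN2 (0.000693) and SYT4 (0.0393) between the SRM doses, NEFM (0.0265) and NHLH1 (0.0428) between the FPM doses, and INA for the difference of the dose steps (0.00736). Depth limits TUBB3, ELAVL3, ELAVL4 and SYT4 most, with counts of 5 to 126 over the 15 libraries.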
